A study of Mus musculus with 12 samples.

Results

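The comparison described here set masses from mice with splenomegaly that carried MYC with serine 62 changed to alanine (S62A) against thymic lymphomas that carried MYC with threonine 58 changed to alanine (T58A). Its members were the 3 RNA-seq libraries titled as S62A splenomegaly and the 3 titled as T58A thymic lymphoma, 6 of the 12 libraries in the mouse series, and it was described over all genes. The splenomegaly masses are labelled as lymphocytes, T and B cells, that expressed ectopic MYCS62A together with endogenous MYC. The T58A lymphomas are labelled as T cells with ectopic MYCT58A as their only MYC. The other 6 libraries were 3 S62A thymic lymphomas (T cells with ectopic MYCS62A only) and 3 controls (T cells with endogenous MYC only). Their levels are given beside the results. They also entered the fit over all 12 libraries, so every SE and p-value of the main test depends on them. Thymic tissue is the labelled source of every library, the splenomegaly masses included; the title of those masses names an enlarged spleen, and the labels do not settle whether thymus or spleen was sampled. Both kinds of mass arose spontaneously according to the labels. Strain, age, treatment and the promoter behind the ectopic MYC are not given in the labels. The allele, the kind of mass, the labelled cell type (T and B cells against T cells), any difference in the organ sampled and the presence of endogenous MYC changed together between both groups, as did the letter that opens the sample code in the titles (I in the splenomegaly masses, H in the T58A lymphomas), so they cannot be told apart. Whether replicate libraries came from different mice is not in the labels. The p-values therefore speak only of variation within the groups of the 12 libraries fitted, part of which may be technical.

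MYC is a transcription factor whose stability is set in part by a pair of neighbouring phosphorylation sites. Phosphate on serine 62 is associated with a stable, active protein, and later phosphate on threonine 58, added by GSK3, marks the protein for ubiquitination by the FBXW7 ligase. In B cells, antigen drives activated cells into germinal centres, where the antibody genes are mutated, and some of those cells become plasma cells, which enlarge their endoplasmic reticulum to secrete antibody. In the thymus, T cell precursors rearrange their receptor genes with the RAG recombinase, pass a stage with both CD4 and CD8 on the surface, and leave as mature cells that carry either co-receptor and homing receptors.

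The libraries held 9577373 to 19905444 reads counted in genes in the splenomegaly masses and 16830893 to 18376634 in the T58A lymphomas. Levels below are counts scaled to library size (CPM, after TMM scaling), listed for libraries 1, 2 and 3 of each group in that order. Differences are log2 fold changes of splenomegaly mass over T58A lymphoma with their standard error (SE), tested with edgeR's quasi-likelihood test and Benjamini-Hochberg adjustment, and a gene was called at an adjusted p under 0.05. Of 15606 genes tested, 7044 (45.1%) were called, 3204 higher in the splenomegaly masses (20.5%) and 3840 lower (24.6%), and the median difference over all genes tested was −0.07. Without any overlap between the libraries of both groups, 4078 genes (26.1%) were higher and 4660 (29.9%) lower, and 1278 genes that missed the call had an unadjusted p under 0.05. More than 16-fold apart were 135 called genes that were higher and 467 that were lower. The first principal component of the 6 libraries carried 69.8% of the variance and separated both groups, with T58A lymphoma 3 the farthest out at −122 against −83.7 and −74.3 for the other T58A lymphomas. Splenomegaly mass 1 stood apart from the other splenomegaly masses in red cell, macrophage, Fc receptor and muscle genes. T58A lymphoma 3 held the lowest B cell, antigen presentation and interferon levels of its group. Counts for those gene groups are given below also without the library.

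The splenomegaly masses carried a B cell programme that was far lower in the T58A lymphomas. Of 28 genes of the B cell receptor and the B cell surface, 25 were higher and 0 lower, with a median difference of 3.02 beside −0.07 over all genes. Cd79b, a signalling subunit of the B cell receptor, stood at 605, 625 and 685 CPM in the splenomegaly masses and at 69.4, 90.2 and 7.48 CPM in the T58A lymphomas (3.52 ± 0.69 SE, adjusted p = 0.00205). The lowest splenomegaly mass exceeded the highest T58A lymphoma, and T58A lymphoma 3 lay well under the other T58A lymphomas. Plcg2, the phospholipase that carries the receptor signal to calcium, was more even within groups, at 303, 301 and 321 CPM against 31.7, 33.7 and 16.4 CPM (3.50 ± 0.40, adjusted p = 7.69e-05). The members that missed the test, chosen for mention after their values were seen, were the complement receptor Cr2, the IgE receptor Fcer2a and the IgM receptor Fcmr. Fcer2a stood at 50.7, 48.7 and 40.0 CPM against 9.81, 41.5 and 0.978 CPM, an overlap made by T58A lymphoma 2 (1.41 ± 0.89, adjusted p = 0.214). Summed over the 28 genes the level was 15769, 13458 and 11928 CPM in the splenomegaly masses, 2485, 3038 and 1109 CPM in the T58A lymphomas, 917 to 1468 CPM in the S62A lymphomas and 1306 to 1573 CPM in the controls. With T58A lymphoma 3 as the only library of its group, a choice made after seeing the data, 25 genes were again higher and 0 lower, and without T58A lymphoma 3, 22 were higher and 0 lower.

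**Figure D1:**
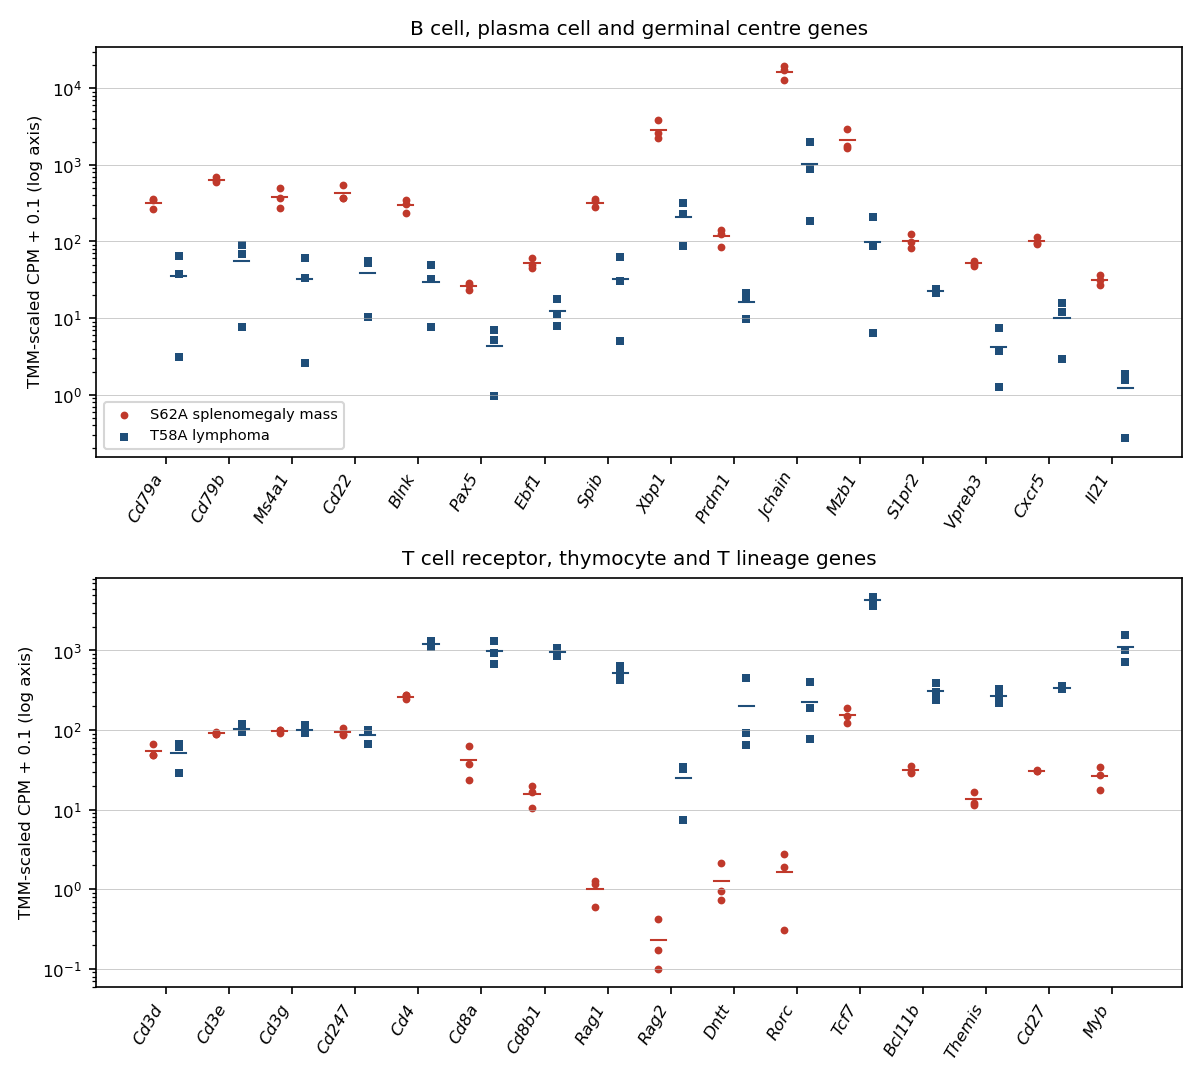
Levels of 16 B cell side genes (top) and 16 T cell side genes (bottom) in each of the 3 S62A splenomegaly masses (red circles) and 3 T58A lymphomas (blue squares), in TMM-scaled CPM with 0.1 added, on a log axis; short lines mark group means. Cd79b, Xbp1 and S1pr2 are separated by group, with T58A lymphoma 3 lowest for Cd79b and Xbp1, while Cd3d, Cd3e and Cd3g overlap and Rag1 and Cd8b1 are separated the other way.

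B lineage transcription factors were higher in the same masses, with 15 of 18 tested genes higher, 1 lower and a median of 2.66; without T58A lymphoma 3, 13 were higher. Pax5, which holds B cells to their lineage, measured 23.1, 26.9 and 28.9 CPM against 5.14, 6.81 and 0.863 CPM (2.62 ± 0.68, adjusted p = 0.00901). Mef2c, a factor of B cell receptor responses, measured 189, 285 and 316 CPM against 30.1, 41.6 and 12.9 CPM (3.22 ± 0.37, adjusted p = 7.39e-05). Neither gene's libraries overlapped between the groups. Irf8, a factor of B and myeloid cells, gave 562, 536 and 497 CPM against 76.2, 111 and 31.2 CPM (2.87 ± 0.34). The 1 lower member was Tcf3, whose E protein serves early B and T cell development alike, at 183, 204 and 210 CPM against 295, 322 and 375 CPM (−0.73 ± 0.13, adjusted p = 0.000963). Pou2af1, the octamer co-activator OBF-1 and a gene named here after its values were seen, was higher than in the T58A lymphomas (942, 1110 and 1364 CPM against 374, 239 and 65.0 CPM, 2.33 ± 0.67). It averaged 914 CPM in the S62A lymphomas, from 202 to 1531 CPM, and 15.2 CPM in the controls. The list of early B cell genes took another direction: of 10 tested, 3 were higher, 5 were lower and the median was −2.25. Its summed level was highest in the controls, labelled as T cells, at 4385 to 4783 CPM, so the list does not stand for early B cells alone here. The 5 lower ones were Cecr2, Dntt, Rag1, Rag2 and Sox4, of which Rag1, Rag2 and Dntt also serve thymocytes. Cecr2 averaged 771 CPM in the T58A lymphomas, 1049 CPM in the S62A lymphomas and 4.66 CPM in the controls. The 3 higher ones were Cd93, Erg and Il7r, and 1 was left without T58A lymphoma 1 or 3 or without any 1 of the splenomegaly masses. The surrogate light chain genes, which mark pre-B cells, were near 0: Vpreb1 stood at 0.318, 0.0 and 0.842 CPM in the splenomegaly masses, and Vpreb2 and Igll1 had too few reads to be tested.

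The stretches upstream of 3 genes are shown because each carries a motif that bears on these lists: the octamer ATGCAAAT, read by OCT factors with OBF-1 and known from antibody gene promoters, and the E-box CACGTG, read by MYC with MAX. They are the 250 bases before the start of Blnk, a B cell adaptor (chr19:40994222-40994471, minus strand), of Vpreb3, a B cell receptor assembly chaperone (chr10:75948050-75948299, plus strand), and of Nop2, a ribosomal RNA methyltransferase taken up with the ribosome genes (chr6:125131633-125131882, plus strand). Coordinates and bases are from RefSeq's GRCm38.p6 table, a later build than the mm9 of the counts, and capitals mark the motif, which in Blnk and Vpreb3 is the octamer on the other strand. The 3 were picked from list members that hold a motif.
Blnk: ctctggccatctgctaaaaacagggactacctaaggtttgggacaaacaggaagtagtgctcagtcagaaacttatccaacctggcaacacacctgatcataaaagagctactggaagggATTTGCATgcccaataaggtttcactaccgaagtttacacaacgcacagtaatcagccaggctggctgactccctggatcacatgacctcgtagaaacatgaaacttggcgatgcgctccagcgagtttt
Vpreb3: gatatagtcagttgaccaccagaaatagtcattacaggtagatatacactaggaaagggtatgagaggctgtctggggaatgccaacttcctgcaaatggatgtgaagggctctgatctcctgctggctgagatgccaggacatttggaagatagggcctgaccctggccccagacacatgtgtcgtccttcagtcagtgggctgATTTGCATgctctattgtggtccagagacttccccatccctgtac
Nop2: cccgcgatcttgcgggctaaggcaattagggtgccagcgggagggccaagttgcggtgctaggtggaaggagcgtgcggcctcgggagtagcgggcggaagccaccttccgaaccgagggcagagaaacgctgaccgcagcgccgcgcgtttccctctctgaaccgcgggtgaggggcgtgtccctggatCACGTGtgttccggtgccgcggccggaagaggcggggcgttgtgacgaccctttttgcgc
The octamer's first base lies 130 bases before the start in Blnk and 45 in Vpreb3, and the E-box's 60 bases before the start in Nop2. Searched on both strands over 300 bases (250 before the start and 50 after), the octamer was in 2 of the 21 matched promoters of the B cell receptor list (9.52%) in 474 of all 27025 promoters (1.75%) and in 1.36% of the 11772 promoters of genes tested. Among genes called higher it was in 1.58% of promoters and among genes called lower in 1.29%. The E-box was in 5 of 24 matched ribosome biogenesis promoters (20.8%), 9.51% of those of all genes tested, 7.24% of all promoters, 9.09% of those of genes called higher and 10.7% of those of genes called lower. A match describes these letters and shows no binding.

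Blnk itself was higher in the splenomegaly masses, at 232, 305 and 352 CPM against 32.5, 49.7 and 7.53 CPM (3.31 ± 0.56, adjusted p = 0.000815). Vpreb3 measured 51.3, 47.6 and 56.2 CPM against 3.64, 7.35 and 1.15 CPM (3.67 ± 0.68, adjusted p = 0.00149). Neither gene's groups overlapped, and the S62A lymphomas averaged 11.2 CPM of Blnk and 0.912 CPM of Vpreb3.

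Plasma cell genes were higher by a similar margin. Of 20 tested, 19 were higher and 0 lower, with a median of 3.06. The plasma cell genes Jchain and Hsp90b1 were among the 6 largest gains in CPM. That ranking, and those of largest rises, falls and losses below, left out antibody and T cell receptor gene segments and predicted genes. Jchain, which links IgA and IgM units into polymers (chromosome 5, 88948834 to 88956922, mm9), measured 12663, 17036 and 19729 CPM against 870, 2006 and 183 CPM (4.01 ± 0.92, adjusted p = 0.00475). Every splenomegaly mass lay above every T58A lymphoma, and T58A lymphoma 3 was again lowest. In the authors' FPKM, which accounts for transcript length, the mean of Jchain was 8232 against 537. Xbp1, the transcription factor that drives the secretory expansion, measured 2231, 2603 and 3842 CPM against 226, 315 and 86.1 CPM (3.79 ± 0.42, adjusted p = 6.2e-05). Prdm1, which encodes the plasma cell regulator BLIMP-1, gave 85.8, 125 and 141 CPM against 18.1, 21.3 and 9.49 CPM (2.84 ± 0.29). Both genes were separated by group. Genes of the endoplasmic reticulum's folding machinery moved the same way: Creld2, a reticulum stress protein, measured 478, 629 and 881 CPM against 62.7, 95.0 and 61.5 CPM (3.18 ± 0.24, adjusted p = 7.44e-06). Hsp90b1, the chaperone GRP94, measured 3948, 6751 and 8056 CPM against 749, 1126 and 436 CPM (3.02 ± 0.35, adjusted p = 7.7e-05). Pdia4, a disulfide isomerase, was higher by 3.11 ± 0.25. Bhlha15, the secretory cell factor MIST1, was at 131, 173 and 245 CPM against 8.43, 13.4 and 1.15 CPM (4.58 ± 0.66, adjusted p = 0.000314). Edem1, which sends misfolded glycoproteins to degradation, missed the test at 0.29 ± 0.22. Slpi, a secreted protease inhibitor, was called at 5538, 5927 and 19354 CPM against 736, 1762 and 60 CPM (3.59 ± 1.28, adjusted p = 0.04), but leaving out T58A lymphoma 1 or 3, or splenomegaly mass 1, 2 or 3, gave adjusted p values of 0.05 to 0.116.

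Germinal centre genes were higher as well, with 12 of 14 tested higher, 1 lower and a median of 2.0. S1pr2, a receptor that confines B cells to the follicle, measured 98.3, 83.1 and 125 CPM against 24.1, 22.1 and 21.2 CPM (2.18 ± 0.23). The groups did not overlap. Nuggc, a germinal centre GTPase, gave 42.2, 52.0 and 67.9 CPM against 2.37, 3.57 and 0.0 CPM (4.76 ± 1.03). Bcl6, the defining factor of germinal centre B cells, missed the call at 0.76 ± 0.30 (adjusted p = 0.0591). The 1 lower gene was Ezh2, a histone methyltransferase that dividing thymocytes also express, at 91.0, 136 and 114 CPM against 322, 286 and 359 CPM (−1.51 ± 0.19). Il21, the cytokine with which follicular helper T cells drive germinal centres, was among the 10 largest rises at 26.6, 36.2 and 31.6 CPM against 1.79, 1.44 and 0.173 CPM (4.78 ± 0.76, adjusted p = 0.000595). In the same group of largest rises were Zbtb32, a repressor of activated lymphocytes (43.5, 74.4 and 63.1 CPM against 1.27, 2.77 and 0.690 CPM, 5.25 ± 0.45, adjusted p = 1.39e-05), Mme, the surface peptidase CD10 (4.63 ± 0.79), and Scimp, an adaptor at the antigen presentation synapse (4.54 ± 0.78).

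Signals that build lymphoid tissue were higher in 16 of the 18 genes tested and lower in 0, with a median of 2.38. Glycam1, a mucin-like protein of high endothelial venules, measured 101, 37.2 and 84.6 CPM against 0.346, 2.93 and 0.0 CPM (6.06 ± 1.01, adjusted p = 0.00078). Tnfsf13b, the B cell survival factor BAFF, measured 86.3, 36.7 and 33.7 CPM against 7.10, 8.09 and 4.60 CPM (2.98 ± 0.39, adjusted p = 0.000173). Cxcl13, which draws B cells into follicles, measured 981, 701 and 360 CPM against 306, 220 and 94.4 CPM (1.72 ± 0.50, adjusted p = 0.0168). The splenomegaly masses lay above every T58A lymphoma for all 3 genes, and splenomegaly mass 1 was the highest of them. Ccl19 and Ccl21a, the T cell zone chemokines, had 0 reads in all 12 libraries.

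Antigen presentation genes were higher almost without exception. Of 15 class II genes tested, 14 were higher and 1 lower, with a median of 2.85. Cd74, the invariant chain, measured 9368, 6951 and 6345 CPM against 894, 1587 and 294 CPM (3.03 ± 0.49, adjusted p = 0.000641), and its regulator Ciita measured 209, 251 and 168 CPM against 19, 32.3 and 6.33 CPM (3.44 ± 0.48, adjusted p = 0.000247). The 1 lower gene was Rfxap, a subunit of the RFX factor on class II promoters (−0.78 ± 0.14). All 19 class I genes tested were higher, with a median of 2.06. B2m, the class I light chain, measured 5657, 4919 and 5042 CPM against 889, 1423 and 427 CPM (2.51 ± 0.34), and Psmb9, a subunit of the immunoproteasome, measured 342, 302 and 296 CPM against 35.0, 65.2 and 30.6 CPM (2.85 ± 0.24, adjusted p = 1.38e-05). H2-K1, a class I heavy chain, was higher by 2.71 ± 0.42, with the limit that class I genes are near-identical copies whose reads the counting could split. For Cd74, Ciita, B2m and Psmb9 the lowest value of the 6 libraries was that of T58A lymphoma 3. With it as the only library of its group, 13 class II and 19 class I genes were higher, and without it 14 and 19 were.

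Interferon response genes were higher in 20 of 28 tested and lower in 0, with a median of 1.56. Without T58A lymphoma 3, 16 were higher, and without splenomegaly mass 1, 15 were. Xaf1, an interferon-induced partner of XIAP, measured 99.1, 116 and 87.7 CPM against 6.64, 9.0 and 2.30 CPM (4.08 ± 0.42). The groups did not overlap. The members that missed the test were Ifit1, Ifit2, Ifit3, Mx1, Isg15, Rsad2, Usp18 and Oasl1, genes strongly induced by type I interferon and named after their values were seen. Immune checkpoint genes were higher in 14 of 18 and lower in 1. Lag3, an inhibitory receptor that binds class II, measured 93.1, 108 and 103 CPM against 9.06, 16.2 and 7.48 CPM (3.21 ± 0.44, adjusted p = 0.000232), and Cd47, which restrains phagocytosis, measured 332, 221 and 213 CPM against 67.9, 59.8 and 48.2 CPM (2.12 ± 0.23). Pdcd1, the receptor PD-1, was higher by 2.46 ± 0.40 and its ligand gene Cd274 by 1.41 ± 0.39. The 1 lower gene was Cd160, a receptor of cytotoxic cells (−1.66 ± 0.36), whose adjusted p was 0.128 with T58A lymphoma 3 as the only library of its group. Fc receptor genes were higher in 6 of 12 and lower in 0, led by the B cell members Fcrla (3.20 ± 0.60) and Fcrl1 (2.77 ± 0.67).

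**Figure D2:**
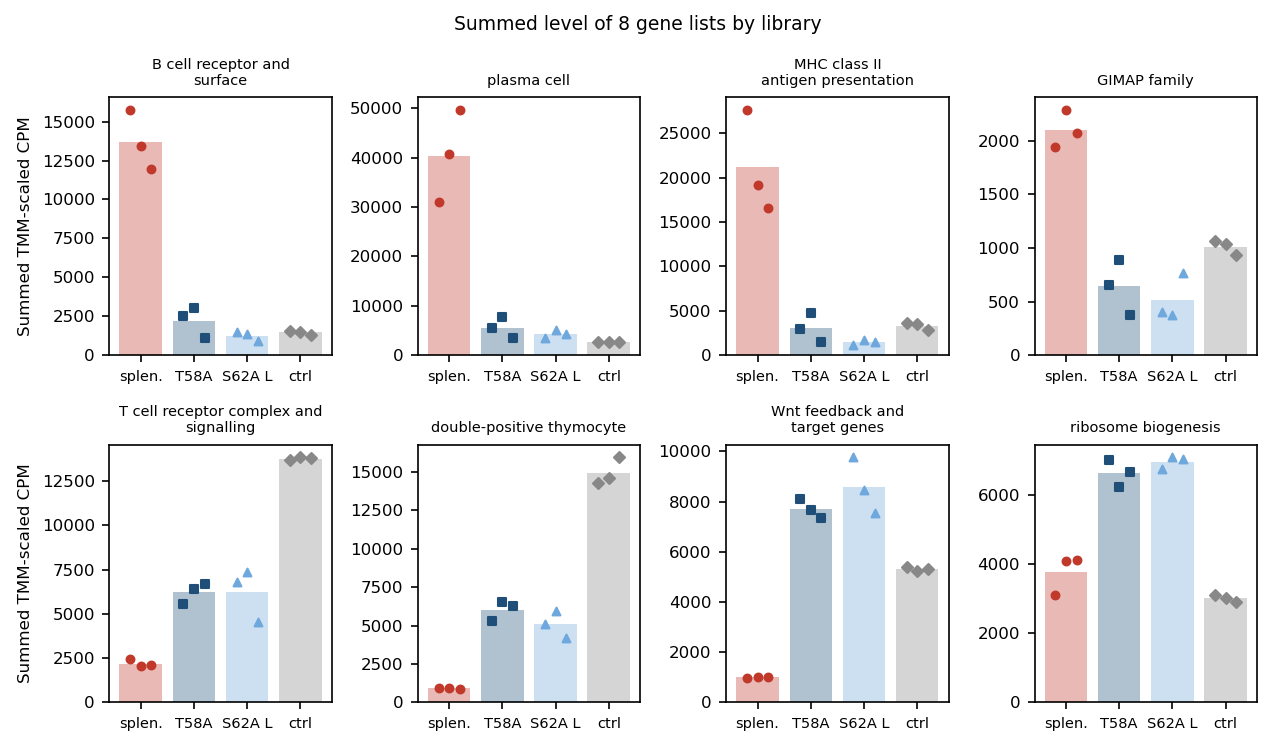
Summed level of 8 gene lists in TMM-scaled CPM for every library, by group (S62A splenomegaly mass, T58A lymphoma, S62A lymphoma, control tissue); points are libraries and bars group means, from 0. The B cell receptor sum is 11928 to 15769 CPM in the splenomegaly masses and 1109 to 3038 CPM in the T58A lymphomas, and the thymocyte sum is 897 to 931 CPM against 5321 to 6566 CPM.

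The T cell side was mixed, with genes that missed the test, genes that were many-fold lower and genes that were higher. The CD3 chains, which mark any T cell with a receptor, missed the test: Cd3e measured 90.2, 94.7 and 90.3 CPM in the splenomegaly masses and 93.7, 97.9 and 120 CPM in the T58A lymphomas (−0.18 ± 0.52, adjusted p = 0.801). Cd3g measured 99.1, 90.8 and 99.0 CPM against 90.5, 91.1 and 116 CPM (−0.04 ± 0.63, adjusted p = 0.968), and Cd3d missed the call at 0.06 ± 0.60. Their groups overlapped, and SEs of 0.52 to 0.63 make a moderate change in either direction undetectable here. The controls held 463 CPM of Cd3e and 631 CPM of Cd3g on average. In the whole list of T cell receptor and signalling genes, 14 of 28 were lower and 2 higher, with a median of −0.95. Cd27, a costimulatory receptor (chromosome 6, 125182640 to 125187045, mm9), measured 30.2, 30.3 and 31.3 CPM against 325, 326 and 355 CPM (−3.46 ± 0.12, adjusted p = 1.55e-07). Both groups were even and did not overlap. Fyn, a receptor-proximal kinase, was higher (1.5 ± 0.34), as was the phosphatase gene Ptpn22 (2.02 ± 0.64), which lost its call without T58A lymphoma 1 (adjusted p = 0.0651), T58A lymphoma 3 (0.0515) or splenomegaly mass 1 (0.0628). Without T58A lymphoma 2, 4 genes of the list were higher. Thy1, a surface protein of T cells and fibroblasts, was among the 6 largest losses in CPM, at 178, 97.3 and 102 CPM against 1615, 1566 and 2432 CPM (−3.89 ± 0.30).

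Genes of the thymocyte stage with both co-receptors were lower in 12 of 20 tested and higher in 1, with a median of −2.75. Cd8b1, the CD8 beta chain, measured 20, 16.6 and 10.4 CPM against 907, 1065 and 864 CPM (−5.91 ± 0.36, adjusted p = 1.9e-06), and Cd4 measured 245, 274 and 273 CPM against 1116, 1182 and 1314 CPM (−2.19 ± 0.33, adjusted p = 0.00039). Rag1, the recombinase (chromosome 2, 101478411 to 101489689, mm9), measured 1.06, 1.16 and 0.491 CPM against 633, 431 and 518 CPM (−9.19 ± 0.50, adjusted p = 8.26e-07), beside 2237 CPM in the controls. All 3 genes were separated by group. The 1 higher gene was Ly6d, which B cells also express (2.16 ± 0.68); its adjusted p was 0.0762 without T58A lymphoma 1 and 0.0513 without splenomegaly mass 1. In bulk tissue, fewer cells of a type and less RNA per cell cannot be told apart.

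T lineage transcription factors were lower in 11 of 20 and higher in 4, with a median of −0.89. Tcf7, which encodes TCF1, a factor of T lineage commitment and a partner of beta-catenin (chromosome 11, 52065785 to 52096516, mm9), measured 149, 122 and 189 CPM against 4621, 4763 and 3671 CPM (−4.83 ± 0.20, adjusted p = 3.16e-07). Bcl11b, which locks in T cell commitment, measured 29.5, 28.9 and 34.9 CPM against 237, 302 and 391 CPM (−3.31 ± 0.19, adjusted p = 1.6e-06). Gata3, which acts from the earliest T cell stages, measured 16.9, 27.3 and 28.5 CPM against 138, 158 and 183 CPM (−2.72 ± 0.29). None of these groups overlapped. The 4 higher factors were Eomes and Tbx21 of effector cells, Ikzf2 of regulatory T cells (28.5, 51.6 and 43.4 CPM against 7.62, 14.3 and 6.10 CPM, 2.13 ± 0.31) and Zbtb7b of CD4 T cells (110, 77.0 and 77.6 CPM against 28.6, 25.9 and 15.0 CPM, 1.93 ± 0.34).

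Genes of mature T cells and of homing were higher in the masses where thymocyte genes were lower. Of 20 tested, 13 were higher and 1 lower, with a median of 1.96. S1pr1, the receptor with which lymphocytes leave the thymus and lymph nodes, measured 129, 165 and 121 CPM against 25.7, 37.4 and 16.7 CPM (2.38 ± 0.28, adjusted p = 8.8e-05). Itgae, the alpha chain of an integrin of tissue-resident T cells, was higher by 2.48 ± 0.22. The 1 lower gene, Dapl1, lost its call without T58A lymphoma 2 (adjusted p = 0.052), and 2 genes were lower without T58A lymphoma 3. GIMAP genes, lymphocyte survival GTPases that lie in 1 cluster and resemble each other, were higher in 7 of 8 and lower in 0, with a median of 1.35. Gimap1 measured 167, 166 and 158 CPM against 67.5, 79.3 and 53.8 CPM (1.29 ± 0.19), and Gimap5 differed by 1.18 ± 0.20. The remaining gene, Gimap9, missed the test (−0.67 ± 0.27) and was called lower with library size as the only scaling and in a fit of the 6 libraries alone. Cytotoxic and natural killer genes were higher in 5 of 16 (31.2%, beside 20.5% of all genes tested) and lower in 0. Ifng, the cytokine interferon gamma, measured 9.76, 10.7 and 8.56 CPM against 0.289, 1.01 and 0.173 CPM (4.27 ± 0.82). The count of 5 fell to 1 without T58A lymphoma 1 or splenomegaly mass 1, and to 2 without T58A lymphoma 3 or splenomegaly mass 2. Notch genes were higher in 6 of 18 (33.3%, beside the same 20.5%) and lower in 0. Notch1 itself, a receptor of T cell commitment, measured 61.8, 77.3 and 81.1 CPM against 17.7, 20.2 and 17.0 CPM (2.0 ± 0.22, adjusted p = 6.21e-05) and 282 CPM in the controls. Without T58A lymphoma 1, 2 Notch genes were lower.

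**Figure D3:**
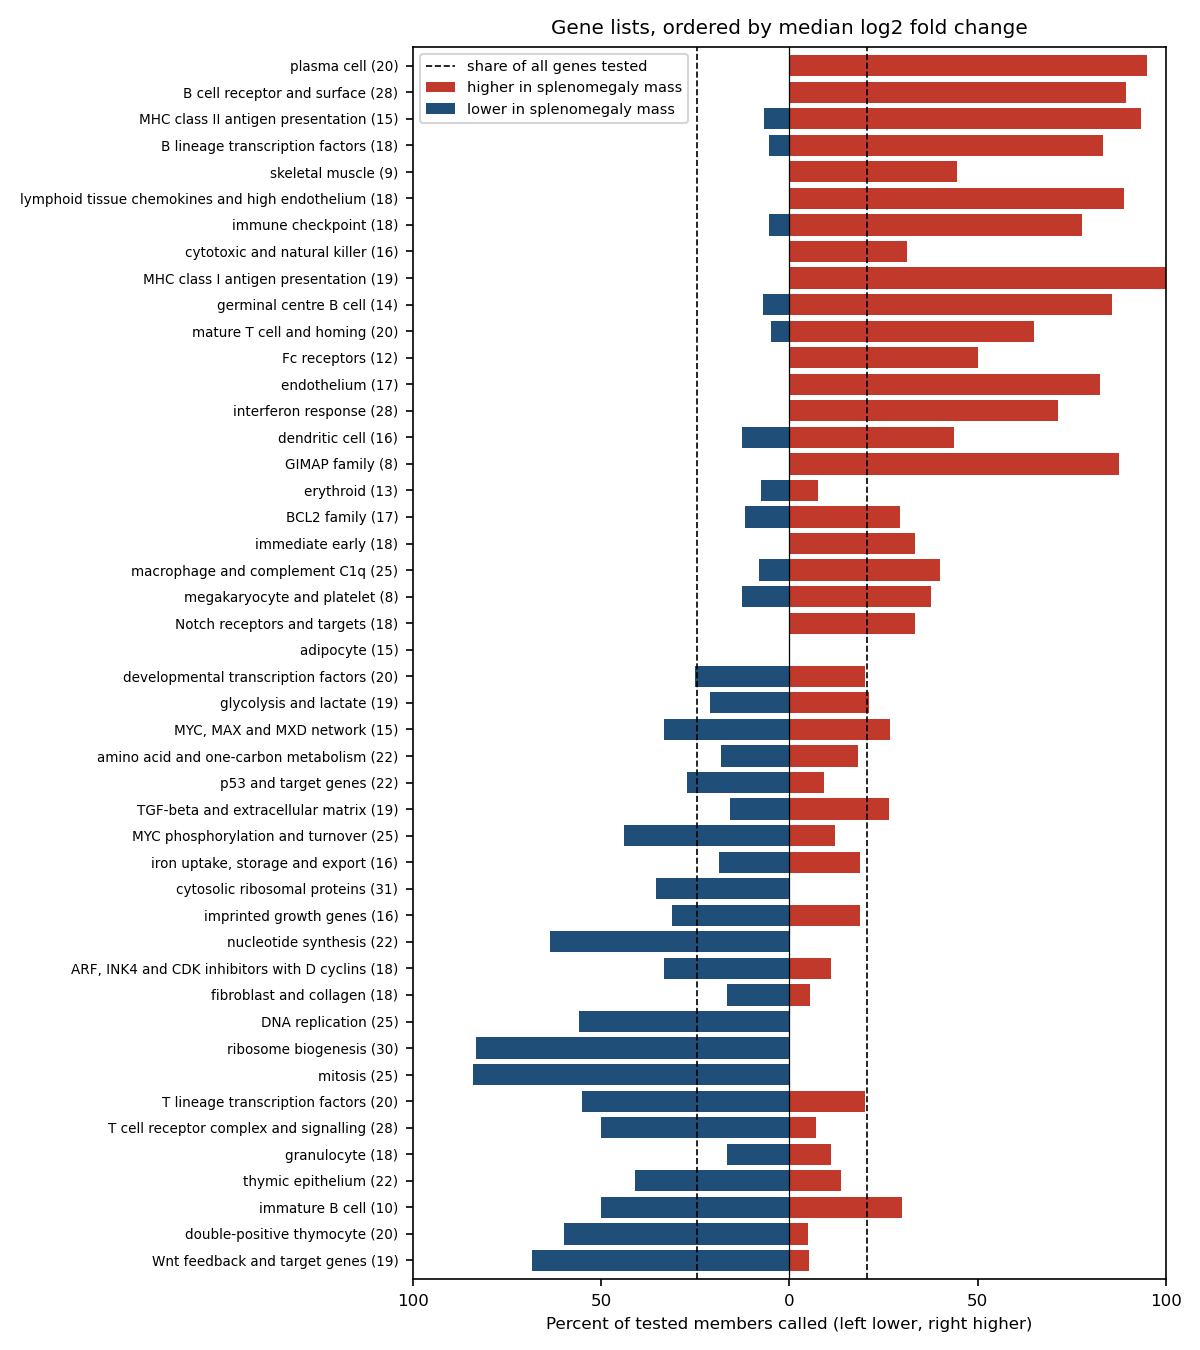
Percent of the tested members of each of 46 gene lists that were called higher (right, red) or lower (left, blue) in the S62A splenomegaly masses than in the T58A lymphomas, ordered by median log2 fold change, with the number tested in brackets; dashed lines mark the share over all genes tested, 20.5% higher and 24.6% lower. B cell, plasma cell and antigen presentation lists lie at the top and Wnt and thymocyte lists at the bottom.

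The T58A lymphomas held a Wnt feedback programme that was low in the splenomegaly masses. Of 19 Wnt feedback and target genes tested, 13 were lower and 1 higher, with a median of −4.13. Axin2, a negative feedback gene and standard readout of beta-catenin signalling (chromosome 11, 108781663 to 108812095, mm9), measured 9.39, 9.77 and 10.7 CPM against 297, 290 and 371 CPM (−5.0 ± 0.24, adjusted p = 5.86e-07). Both groups were tight and far apart. The S62A lymphomas averaged 311 CPM and the controls 30.4 CPM. Nkd1, another feedback inhibitor, measured 2.44, 0.841 and 1.40 CPM against 534, 335 and 227 CPM (−7.79 ± 0.42), and Notum, which inactivates Wnt ligands, measured 0.265, 0.420 and 0.421 CPM against 298, 107 and 85.6 CPM (−8.81 ± 0.65). Ctnnb1, which encodes beta-catenin, was lower by a smaller step (−1.14 ± 0.13). The 1 higher gene was Ccnd1, cyclin D1 (1.61 ± 0.43). The summed level was 967, 999 and 1032 CPM in the splenomegaly masses and 8089, 7663 and 7361 CPM in the T58A lymphomas. It was 7543 to 9781 CPM in the S62A lymphomas, so the programme was not particular to the T58A lymphomas, and 5240 to 5397 CPM in the controls. Tcf7 made up a large part of the sum.

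Several genes of embryonic patterning and of imprinted loci were read in the T58A lymphomas and nearly absent from the splenomegaly masses. Sim2, a basic helix-loop-helix factor, had 0 reads in all splenomegaly masses and 1126, 275 and 195 CPM in the T58A lymphomas, which makes it at least 7460-fold lower when 3 reads over the group are taken as the limit of a count of 0; with limma-voom its adjusted p was 0.0736. Mixl1, a mesendoderm homeobox gene, was at least 1470-fold lower by the same limit, from 60.8, 55.0 and 198 CPM. Barx1, a homeobox gene of the embryonic stomach (chromosome 13, 48758405 to 48761876, mm9), had 1 read in the splenomegaly masses and 260, 51.1 and 144 CPM in the T58A lymphomas, scaled to depth 6360 times as many reads (95% counting interval 1140 to 251000). Wif1, a secreted Wnt inhibitor, had 1 read against 353, 43.1 and 35.4 CPM, 6000 times as many (1080 to 237000), and its adjusted p was 0.0922 with limma-voom. Single libraries weighed on these folds: without T58A lymphoma 1, Sim2 was at least 3360-fold lower and the ratios of Barx1 and Wif1 were 4090 and 1680, and without T58A lymphoma 3, Mixl1 was at least 821-fold lower. By the limit of a count of 0, Klf17, a factor of the early embryo, was at least 444-fold lower (18.5, 30.2 and 45.1 CPM in the T58A lymphomas) and Crhbp, which binds corticotropin-releasing hormone, at least 412-fold (19.6, 34.7 and 32.3 CPM). Frem2, a matrix protein of the embryonic skin, was at least 648-fold lower (31.7, 76.4 and 26.2 CPM), and at least 411-fold without T58A lymphoma 2. The other largest falls leaned further on 1 library. Acot5, an acyl-CoA thioesterase, measured 154, 17.6 and 27.5 CPM in the T58A lymphomas, at least 922-fold and without T58A lymphoma 1 at least 318-fold. Slc5a9, a sugar transporter, measured 105, 13.7 and 5.23 CPM, at least 576-fold and without T58A lymphoma 1 at least 137-fold. Adam2, a sperm surface protein, measured 16.7, 2.45 and 76.4 CPM, at least 442-fold and without T58A lymphoma 3 at least 132-fold. Slc5a9 and Adam2 missed the call with limma-voom (adjusted p = 0.113 and 0.0674). The S62A lymphomas held many of these genes as well, on average 336 CPM of Sim2, 291 CPM of Barx1, 190 CPM of Wif1 and 81 CPM of Mixl1, while Slc5a9 averaged 0.888 CPM there and 120 CPM in the controls. The list of developmental transcription factors as a whole had 5 of 20 lower and 4 higher, 45.0% called beside 45.1% of all genes tested. The lower ones were Barx1, Esx1, Prox1, Six2 and Tbx4, and the higher ones were Hhex, Lmo2, Lyl1 and Mef2c, which blood cells use. Of 16 imprinted growth genes, 5 were lower, 3 were higher and 8 missed the test. Beside them, 24.6% of all genes tested were lower and 20.5% higher, so the list as a whole was called about as often as all genes. H19, a noncoding RNA of the Igf2 locus, measured 11.2, 0.420 and 2.38 CPM against 5790, 741 and 989 CPM (−8.99 ± 1.62), beside a mean of 1830 CPM in the S62A lymphomas, and the placental gene Peg10 measured 0.371, 0.315 and 0.0 CPM against 399, 431 and 636 CPM (−10.99 ± 1.60, adjusted p = 0.0644 with limma-voom). The count of 5 was 2 with limma-voom and 3 with T58A lymphoma 3 as the only library of its group.

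**Figure D4:**
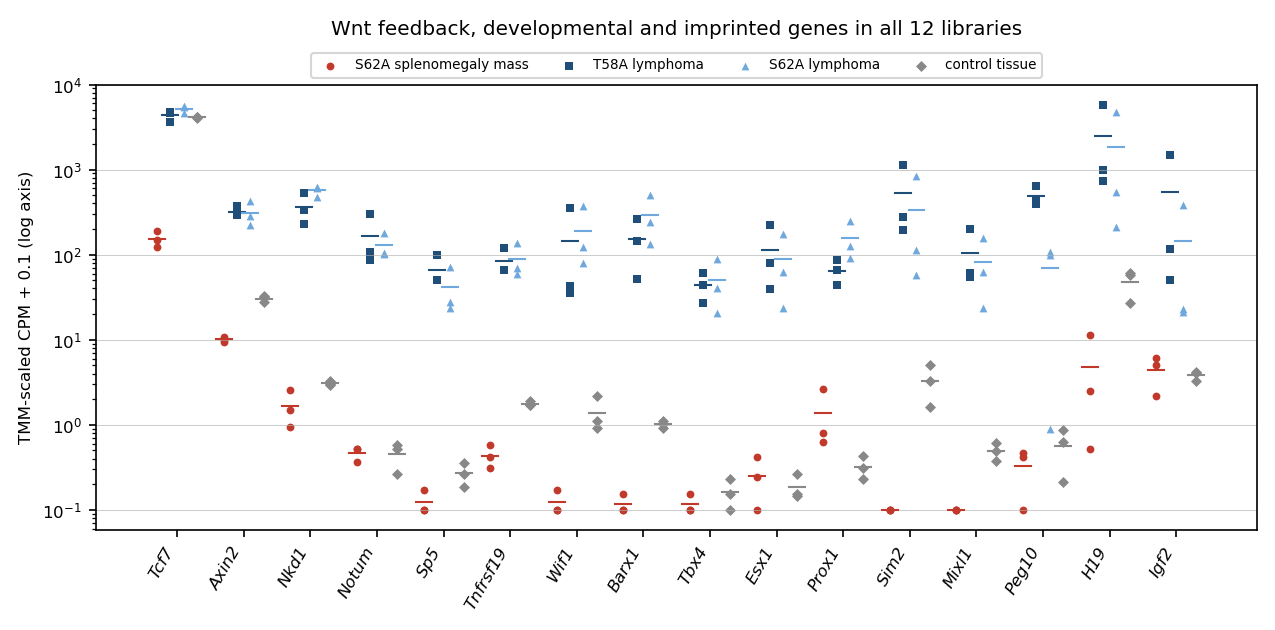
Levels of 16 Wnt feedback, developmental and imprinted genes in all 12 libraries (S62A splenomegaly mass, T58A lymphoma, S62A lymphoma, control tissue), in TMM-scaled CPM with 0.1 added, on a log axis; short lines mark group means. Tcf7 is at 122 to 189 CPM in the splenomegaly masses and at 3671 CPM or more in the T58A lymphomas, and genes such as Barx1 and Sim2 lie on the floor of the axis in the splenomegaly masses.

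Myc (chromosome 15, 61816896 to 61821916, mm9) was lower in the splenomegaly masses, at 84.2, 91.5 and 99.9 CPM against 158, 134 and 137 CPM in the T58A lymphomas (−0.64 ± 0.13, adjusted p = 0.00223), a difference of under 2-fold without overlap. The S62A lymphomas averaged 173 CPM and the controls 82.7 CPM. Reads of the ectopic and of the endogenous Myc were not told apart in the counts. In the MYC, MAX and MXD network, 4 of 15 genes were higher, 5 were lower and 6 missed the test. The shares of all genes tested were 20.5% higher and 24.6% lower, and whether this small list exceeded them was not tested. Bin1, a MYC-interacting tumour suppressor, measured 133, 117 and 103 CPM against 22.2, 29.6 and 21.3 CPM (2.27 ± 0.22, adjusted p = 2.67e-05), and Zbtb17, which encodes MIZ-1, the partner through which MYC represses genes, measured 42.2, 32.0 and 41.0 CPM against 55.4, 62.1 and 73.8 CPM (−0.73 ± 0.14). Both were separated by group. The count of 5 lower was 3 without T58A lymphoma 2, splenomegaly mass 1 or splenomegaly mass 2, 2 with T58A lymphoma 3 as the only library of its group, and 0 beyond 2-fold. Max, the obligate partner, missed the test (0.22 ± 0.09), and Mycn was near 0 in both groups.

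Of 25 genes that modify or degrade MYC, 3 were higher and 11 lower, 56.0% called beside 45.1% of all genes tested. Over all genes tested, 20.5% were higher and 24.6% lower. Of the 11 lower genes, 3 lay beyond 2-fold. Fbxw7, the ligase that recognises phosphorylated threonine 58, measured 74.9, 117 and 147 CPM against 57.6, 62.7 and 52.8 CPM (0.97 ± 0.21, adjusted p = 0.00306). Pim1, a kinase reported to phosphorylate MYC, measured 170, 199 and 229 CPM against 64.6, 62.2 and 34.5 CPM (1.89 ± 0.22, adjusted p = 8.03e-05), and its relative Pim2 was higher by 1.78 ± 0.33. Cdk2, a cyclin-dependent kinase that can act on serine 62, measured 72.8, 76.5 and 82.8 CPM against 242, 189 and 201 CPM (−1.44 ± 0.16, adjusted p = 5.57e-05). None of these groups overlapped. Gsk3b, the kinase of threonine 58, missed the test (−0.17 ± 0.13), and the deubiquitinase genes Usp28 and Usp36 did as well (−0.02 ± 0.15 and 0.21 ± 0.14).

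Ribosome biogenesis genes, textbook targets of MYC, were lower in 25 of 30 tested and higher in 0, with a median of −0.71. Rrp12, a factor of ribosomal subunit export, measured 29.4, 30.9 and 30.3 CPM against 76.6, 58.6 and 66.5 CPM (−1.15 ± 0.13, adjusted p = 8.04e-05). Ncl, the nucleolar protein nucleolin, measured 720, 1232 and 1114 CPM against 2098, 2007 and 2075 CPM (−1.01 ± 0.18, adjusted p = 0.00115), and Nop2, whose upstream E-box is printed above, measured 72.9, 79.9 and 88.5 CPM against 209, 125 and 175 CPM (−1.07 ± 0.17). The groups did not overlap, and splenomegaly mass 1 held the lowest value of the 6 for Rrp12, Ncl and Nop2. The members that missed the test were Rrp1b, Ubtf, Polr1e, Polr1b and Polr1c, mostly of the polymerase that makes ribosomal RNA. The differences were small, 10 of the 25 lying beyond 2-fold. Summed levels were 3112, 4081 and 4108 CPM in the splenomegaly masses, 7025, 6227 and 6678 CPM in the T58A lymphomas, 6761 to 7104 CPM in the S62A lymphomas and 2905 to 3111 CPM in the controls. Of the cytosolic ribosomal protein genes 35.5% were called, under the 45.1% of all genes tested, of which 24.6% were lower. They were lower in 11 of 31 and higher in 0 (median −0.38), among them Rpl32 (512, 413 and 452 CPM against 904, 912 and 1023 CPM, −1.04 ± 0.13). That count was 7 without splenomegaly mass 2 or 3, 6 with T58A lymphoma 3 as the only library of its group and 5 beyond 2-fold.

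**Figure D5:**
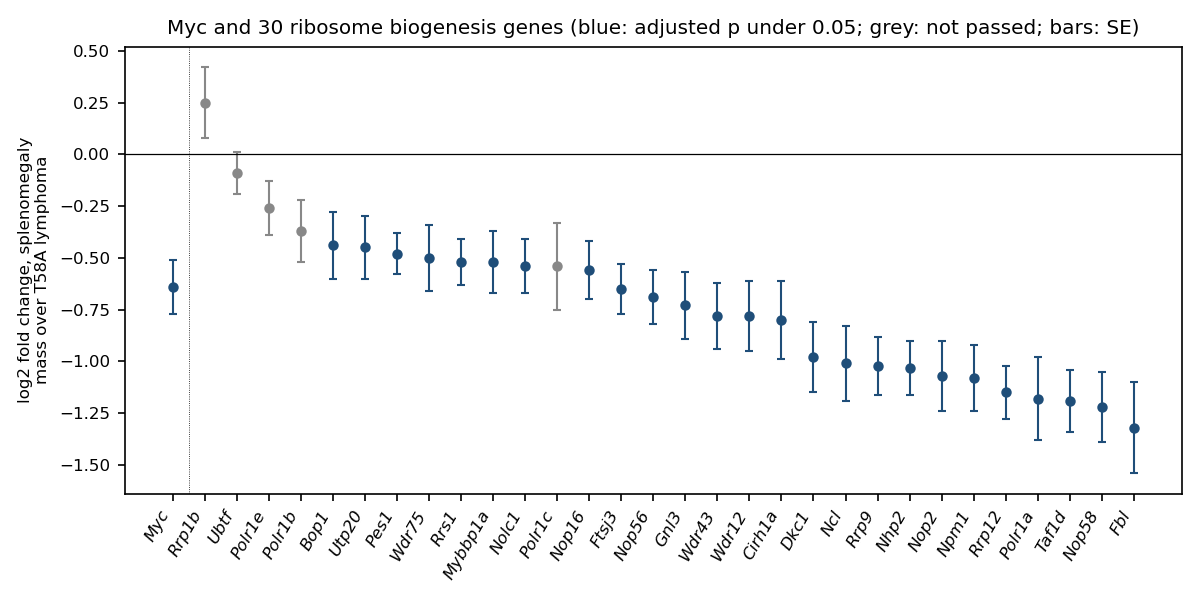
Log2 fold change of S62A splenomegaly mass over T58A lymphoma with its SE (bars, 3 libraries a group) for Myc and 30 ribosome biogenesis genes, ordered by their difference; blue points passed at an adjusted p under 0.05 and grey points did not. Myc lies at −0.64 and 25 of the 30 genes passed below 0.

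Growth and division genes leaned the same way, mostly by small steps. Nucleotide synthesis genes were lower in 14 of 22 and higher in 0 (median −0.50), led by the purine enzyme Atic (−0.78 ± 0.12) and the nucleotide sanitiser Dctpp1 (−0.93 ± 0.17). The count was 8 without T58A lymphoma 3, 6 without splenomegaly mass 1 and 1 beyond 2-fold. DNA replication genes were lower in 14 of 25 and higher in 0, with helicase subunit Mcm7 at −0.90 ± 0.11 and the initiation factor Mcm10 at −0.98 ± 0.16, and 3 of them lay beyond 2-fold. Mitosis genes were lower in 21 of 25 and higher in 0, with a median of −0.74. Ccnb1, cyclin B1 (chromosome 13, 101548694 to 101556441, mm9), measured 37.8, 40.8 and 44.5 CPM against 269, 308 and 236 CPM (−2.72 ± 0.14, adjusted p = 6.67e-07), while Mki67, the proliferation marker, overlapped at 267, 567 and 556 CPM against 523, 476 and 417 CPM (−0.03 ± 0.26). The mitosis count was 11 without T58A lymphoma 2, 11 without splenomegaly mass 1, 5 with T58A lymphoma 3 as the only library of its group and 5 beyond 2-fold.

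Among the D cyclins and CDK inhibitors, 2 of 18 genes were higher and 6 lower, 44.4% called beside 45.1% of all genes tested. Ccnd2, the D cyclin of B cell activation, measured 462, 495 and 556 CPM against 74.7, 93.1 and 34.2 CPM (2.90 ± 0.54), while its partner kinase gene Cdk4 measured 182, 176 and 194 CPM against 440, 455 and 400 CPM (−1.23 ± 0.10, adjusted p = 1.27e-05). Cdkn1a, which encodes the CDK inhibitor p21, measured 46.9, 37.2 and 36.1 CPM against 430, 223 and 498 CPM (−3.26 ± 0.40, adjusted p = 0.000124). All 3 were separated by group. Cdkn2a, the locus of p16 and ARF, overlapped at 29.0, 21.7 and 22.6 CPM against 32.1, 16.5 and 20.5 CPM, above the 1.87 CPM of the controls. Of 22 p53 genes, 2 were higher and 6 lower, 36.4% called and so under the share of all genes. The count of 6 was 3 beyond 2-fold. The count of 2 was 1 without T58A lymphoma 3 or splenomegaly mass 2. The BH3-only gene Pmaip1 was higher (2.16 ± 0.36) and Trp53 itself lower (−0.76 ± 0.15). In the BCL2 family, which sets the threshold of apoptosis, 5 of 17 were higher and 2 lower (41.2% called). Mcl1, a survival protein of plasma cells and many other cells, measured 1235, 1112 and 1168 CPM against 608, 694 and 560 CPM (0.92 ± 0.13), and Bcl2 was higher by 1.55 ± 0.38. The count of 5 was 9 with DESeq2 or limma-voom and 3 beyond 2-fold, and the 2 lower genes, Bik and Bbc3, were called in none of the fits without T58A lymphoma 2, without splenomegaly mass 2 or 3, or with T58A lymphoma 3 alone.

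Metabolic lists were mixed and called less often than the 45.1% of all genes tested: 42.1% of glycolysis and lactate, 36.4% of amino acid and one-carbon and 37.5% of iron genes. Glycolysis and lactate genes had 4 of 19 higher and 4 lower: Pfkp, a phosphofructokinase, was higher (1.26 ± 0.13), and Slc16a1, the lactate transporter MCT1, was lower at 59.0, 64.2 and 73.6 CPM against 351, 327 and 463 CPM (−2.54 ± 0.22). The 4 lower were 2 without splenomegaly mass 2 or with T58A lymphoma 3 as the only library of its group, and the 4 higher were 2 beyond 2-fold. Amino acid and one-carbon genes had 4 of 22 higher and 4 lower, including the large neutral amino acid transporter Slc7a5 (121, 135 and 196 CPM against 337, 248 and 345 CPM, −1.04 ± 0.22) on the lower side. Their 4 higher were 1 without T58A lymphoma 3 or with it as the only library of its group, and 2 beyond 2-fold. Their 4 lower were 2 without T58A lymphoma 1 or with T58A lymphoma 3 as the only library of its group, and 1 without splenomegaly mass 1 or beyond 2-fold. Iron genes had 3 of 16 higher and 3 lower, with the transferrin receptor Tfrc at 74.3, 119 and 115 CPM against 807, 410 and 387 CPM (−2.38 ± 0.36); the 3 higher were 1 without T58A lymphoma 2 or 3, without splenomegaly mass 1, or with T58A lymphoma 3 as the only library of its group. Slc29a1, a nucleoside transporter, was among the 6 largest losses in level at 82.7, 60.2 and 80.2 CPM against 1740, 1065 and 1889 CPM (−4.39 ± 0.33), as was the cytosolic chaperone Hsp90ab1 at 1969, 2219 and 2251 CPM against 4467, 3886 and 4184 CPM (−0.96 ± 0.13).

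Markers of other cells in the tissue were called to different extents, beside the 45.1% of all genes tested: 82.4% of endothelial, 56.2% of dendritic cell, 54.5% of thymic epithelial, 48.0% of macrophage, 44.4% of skeletal muscle, 27.8% of granulocyte, 22.2% of fibroblast and 15.4% of erythroid genes. Endothelial genes were higher in 14 of 17 tested and lower in 0, with a median of 1.60, and the count was 8 with T58A lymphoma 3 as the only library of its group. Plvap, a protein of vessel fenestrae, measured 212, 162 and 179 CPM against 26.5, 45.7 and 30.7 CPM (2.42 ± 0.21, adjusted p = 1.53e-05), and the splenomegaly masses lay above every T58A lymphoma. Macrophage genes were higher in 10 of 25 and lower in 2. Csf1r, the macrophage growth factor receptor, measured 510, 317 and 331 CPM against 114, 144 and 89.0 CPM (1.74 ± 0.33), while Itgam, the integrin CD11b, was lower at 112, 65.6 and 60.5 CPM against 891, 515 and 331 CPM (−2.87 ± 0.46). Itgam averaged 947 CPM in the S62A lymphomas and 11.9 CPM in the controls. The summed macrophage level was 13635, 7494 and 6955 CPM against 6399, 5216 and 5297 CPM, with splenomegaly mass 1 highest, and 7 genes were higher without that mass or without T58A lymphoma 3. Lilra5 and Klrb1b, a myeloid and a natural killer receptor among the 10 largest rises, were spread the same way: Lilra5 measured 122, 26.8 and 13.2 CPM against 1.44, 1.12 and 2.65 CPM (4.96 ± 0.82), and Klrb1b measured 67.9, 14.1 and 5.61 CPM against 1.5, 1.7 and 0.403 CPM (4.59 ± 1.03). Without splenomegaly mass 1 the differences were smaller, 3.57 for Lilra5 (adjusted p = 0.00129) and 3.08 for Klrb1b (adjusted p = 0.018). Dendritic cell genes were higher in 7 of 16 and lower in 2, with the cross-presenting cell receptor Xcr1 at 3.17 ± 0.34. The higher count was 11 with T58A lymphoma 3 as the only library of its group, and the lower ones were Ccl17 and Ccl22, chemokines of activated dendritic cells. Ccl22 rested on T58A lymphoma 2: it measured 21.2, 410 and 16.8 CPM in the T58A lymphomas and had an adjusted p of 0.104 without that library. Ccl17 lost its call without T58A lymphoma 2 (adjusted p = 0.142) or 3 (0.0616) and without splenomegaly mass 1 (0.141) or 3 (0.13). Granulocyte genes were higher in 2 of 18 and lower in 3, among them the alarmin S100a8 at 9.71, 3.78 and 17.9 CPM against 62.5, 21.2 and 66.4 CPM (−2.25 ± 0.60). The 3 lower became 5 without T58A lymphoma 2 and 6 with DESeq2, and the 2 higher were 1 without T58A lymphoma 3, splenomegaly mass 1 or splenomegaly mass 3.

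Thymic epithelial genes were lower in 9 of 22 and higher in 3. Krt5, a keratin of medullary epithelium, measured 0.106, 0.105 and 0.0701 CPM against 79.7, 56.8 and 112 CPM (−9.68 ± 0.72, adjusted p = 6.69e-06). Prss16, the thymus-specific protease of cortical epithelium, went the other way at 21.6, 32.0 and 25.3 CPM against 1.04, 2.87 and 0.748 CPM (4.06 ± 0.55), far under the 1104 CPM of the controls. Both genes were separated by group. Foxn1 and Psmb11, which define thymic epithelium, were near 0 in both groups. Krt5 in the T58A lymphomas was not called against the controls, which averaged 135 CPM (T58A lymphoma over control −0.70, adjusted p = 0.197 in the same edgeR fit). The controls measured 141, 142 and 122 CPM of Krt5, each above every T58A lymphoma, so a moderate loss of Krt5 is not excluded. The summed epithelial level was 517, 383 and 420 CPM against 513, 575 and 532 CPM, beside 5014 to 5637 CPM in the controls. Fibroblast and collagen genes were lower in 3 of 18 and higher in 1. The matrix protein Fbln1 measured 8.27, 4.52 and 5.33 CPM against 96.7, 166 and 252 CPM (−4.80 ± 0.40). Another of the 3 lower was Thy1, given above with the T cell genes, which averaged 2937 CPM in the controls. Adipocyte genes gave 0 higher and 0 lower of 15 in edgeR's test, also at an unadjusted p under 0.05, with DESeq2 and with limma-voom, and 1 higher without T58A lymphoma 1. Megakaryocyte genes gave 3 higher and 1 lower of 8. Of 13 erythroid genes 1 was higher and 1 lower, the lower being Tfrc, counted above among the iron genes. The higher one was Hbb-b1, a beta globin, at 1058, 172 and 119 CPM against 48.8, 83.9 and 179 CPM, and without splenomegaly mass 1 its adjusted p was 0.459. The count of higher erythroid genes was 0 without T58A lymphoma 1 or 2 or splenomegaly mass 1, 3 without T58A lymphoma 3, 2 without splenomegaly mass 2 or 3 and 3 with DESeq2. Skeletal muscle genes were higher in 4 of 9 and lower in 0; without splenomegaly mass 1, 1 was higher and 2 lower, and without T58A lymphoma 1, 2 were higher. The summed muscle level was 211 CPM in that mass and 57.4 and 69.9 CPM in the others. The part of these other cells in the lymphocyte results was not tested.

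TGF-beta and matrix genes were higher in 5 of 19 and lower in 3, 42.1% called beside 45.1% of all genes tested. Skil, a feedback inhibitor of SMADs, was higher by 1.44 ± 0.12, and Smad3, a mediator of the signal, was lower (−1.46 ± 0.30). The 5 higher were 3 beyond 2-fold, and the 3 lower were 5 in a fit of the 6 libraries only. Immediate early genes were higher in 6 of 18 (33.3%, beside 20.5% of all genes tested) and lower in 0, and 3 of the 6 lay beyond 2-fold. Egr2, a factor induced by antigen receptor signals, was at 2.35 ± 0.33 and Jun at 2.30 ± 0.35.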

How the data were processed

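RNA of 12 mouse libraries in 4 groups of 3 (poly(A) RNA, strand-marking kit, per the labels' protocols) was analysed. The authors deposited whole-number read counts and FPKM per transcript for each library, and the files name mm9. Per the submitters' processing notes, bcl2fastq 2.20.0.422, Bowtie 1.0.0 and DESeq2 were used on mm9; which program counted the reads, whether it used strand and how it placed multiply matching reads is not given in the sources used here. Per symbol, the transcript row with the most reads over the 12 libraries was kept (36141 rows, 24478 symbols, 6148 with several transcripts); 30 genes had counts equal to those of another symbol. Overlapping and antisense genes, and near-identical copies, may share reads.

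The counts were tested with edgeR 4.0.16 in R 4.3.3: filterByExpr with a minimum count of 10, TMM scaling, and a quasi-likelihood test of 1 model over all 12 libraries and 4 groups (8 residual degrees of freedom), adjusted by Benjamini-Hochberg over all genes tested. The SE is the size of the log2 fold change divided by the square root of the F statistic. Estimated within each group, biological variation was 28% in the splenomegaly masses and 41.1% in the T58A lymphomas. It was 45% in the S62A lymphomas and 17.1% in the controls, while the model pooled the 4 groups. Levels are CPM over the TMM-scaled library size. FPKM served only as levels per length and was not tested. The test was also run on simulated counts drawn with a common spread for all genes and groups. The real groups differ in spread, so that run does not give the error rate of this comparison. Depth ran from 9577373 to 19905444 reads in the 6 libraries compared, and intervals and the floor of 3 reads cover counting error only.

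The comparison and the 46 gene lists were chosen with earlier results of these data known. Genes were named by rule. The 10 largest rises and falls in log2 fold change and the 6 largest in CPM were taken. For these, a gene had to be called, average 20 CPM or more in either of the groups and have no overlap between libraries. Predicted genes and antibody and T cell receptor gene segments were left out of these rankings. Myc was added, as were, with no limit on level or overlap, the 2 higher and 2 lower called members of smallest p per list. The first symbols of a list could be named by value. Some genes that meet the rule are not reported here. Other genes, among them Blnk, Vpreb3, Nop2, Xbp1, Pou2af1, and any gene given as a list's exception, were chosen after their values were seen. Alternatives were DESeq2 1.42.0, limma 3.58.1 (voom), DESeq2 size factors, library size only, other filters, a 2-fold limit, the transcript with the fewest reads, the 6 libraries alone, and leaving out each library.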

Additional observations from a re-analysis of the deposited data

How the results depend on the processing

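Over 16 alternative settings, no gene among the 154 that the naming rule picked reversed its direction in a setting that tested it. The counts of 3204 genes higher and 3840 lower in the splenomegaly masses became 3509 and 3434 with DESeq2's size factors in edgeR, 2938 and 4367 with library size only, 3876 and 3765 with DESeq2, 3551 and 3637 with limma-voom, 3294 and 3359 without a filter, 2967 and 3215 at a mean of at least 5 CPM, 2964 and 3186 with the 6 libraries alone and 3159 and 3795 with the transcript of fewest reads. Beyond a 2-fold change they were 2291 and 1941, the lower count moving by more than 1.5 times since fewer genes can meet both limits. The share of calls that were higher was 45.5% in the main test, 50.5% with DESeq2's size factors, 40.2% with library size only, 49.5% without a filter, 49.4% with limma-voom, 49.2% without splenomegaly mass 1 and 54.1% beyond 2-fold; the cause was not tested. Leaving out each library in turn gave 2608 to 3132 higher and 2950 to 3555 lower. With T58A lymphoma 3 as the only library of its group, chosen after seeing the data and assuming that it varies like the other groups, 2519 were higher and 2999 lower. Among named genes, limma-voom lost the call of 11, the fit of the 6 libraries alone that of 8 and the fit without splenomegaly mass 1 that of 13. Depth limits genes near 0, for which bounds or counting intervals are given. No paired analysis was possible because the replicate numbers follow the order of the samples and pair no libraries across groups.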

Other observations

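By chromosome, the median difference between splenomegaly mass and T58A lymphoma was lowest, among chromosomes other than Y, on chromosome 6, at −0.32 over 794 genes tested (164 higher, 271 lower), and on chromosome 15, at −0.30 over 627 genes (109 higher, 205 lower), where Myc lies. The other chromosomes apart from Y lay between −0.20 and 0.04, beside −0.07 over all genes tested. These medians are a description of genes that are not independent of each other, and neither copy number nor any other reason for them was tested.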
